A study of Rattus norvegicus with 4 samples.

Results

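Rab GTPases, the small switch proteins that give each membrane of the vesicle traffic its identity, were measured in NR8383 cells, a macrophage line established from rat lung lavage. The members are the genes whose rat symbol is Rab followed by a number and at most a letter and a further digit, without effectors or regulators. Of 16581 named genes on the arrays, 54 met this rule, out of 58 such symbols in the name table. Rab22a, Rab37, Rab42 and Rab44 had no named probe and were not analysed here. The 54 genes were read by 70 probes and 97 spots on each array.

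The analysed samples form 1 group of 4 biological replicates, with 1 array each. All came from 1 cell line, were NR8383 cells of 20 passages given Printex90, a carbon black powder, for 4 h, with 0.9 cm2/cm2 as the stated amount. The term ALI in the labels is not spelled out there. The labels describe the culture as a mixture of adherent and floating cells in serum-containing medium. The untreated cells of the series were not analysed here, so the values describe exposed cells and no change with exposure.

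A Rab protein is switched on by an exchange factor that loads GTP and off by an activating protein that triggers GTP hydrolysis, and in the GTP form it recruits effectors that tether, move or fuse vesicles. Lipid anchors hold it on its membrane, and GDP dissociation inhibitors extract it for a new round. In macrophages an ingested particle lies in a phagosome that first carries Rab5, then exchanges it for Rab7 and fuses with lysosomes, while other members recycle receptors or carry newly made proteins outward.

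A gene counted as detected on an array when at least one of its probes had a spot that the scanner software marked as well above background. A level is the log2 intensity of a gene's brightest fully measured probe relative to the array's 75th percentile over all probes, so 0 lies at that percentile. On each array 0.397 to 3.02% of spots lie in regions where many spots were brighter than on the other arrays, and 6 spots of members lie in such bright regions. Probes differ in how well they bind, so levels of different genes were not ranked. Errors are SDs over the 4 replicates.

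Of the 54 Rab genes, 39 (72.2%) were detected on all 4 arrays, 3 on some and 12 (22.2%) on none. Among all 16581 named genes, 8424 (50.8%) were detected on all arrays and 36.9% on none. With a less strict mark of the software the Rab count was 42, against 61.7% of all genes. On at least 3 arrays it was 40, against 54%, and with all probes of a gene required it was 38, against 45%. All but 3 of the 39 detected members lay outside the tissue-restricted role. Detection on all arrays was found for 12 of 12 endosomal, 8 of 9 phagosomal, 13 of 14 secretory, 3 of 14 tissue-restricted and 3 of 5 other genes. In bulk RNA fewer cells with a transcript and less transcript per cell cannot be told apart. The roles were assigned from general knowledge of the family, and the role of a gene in these cells was not measured. The tissue-restricted list gathers members known mainly from other tissues, so its low count follows in part from how the list was made. The lists were chosen with earlier results of these data known. No test was made of these counts.

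**Figure D1:**
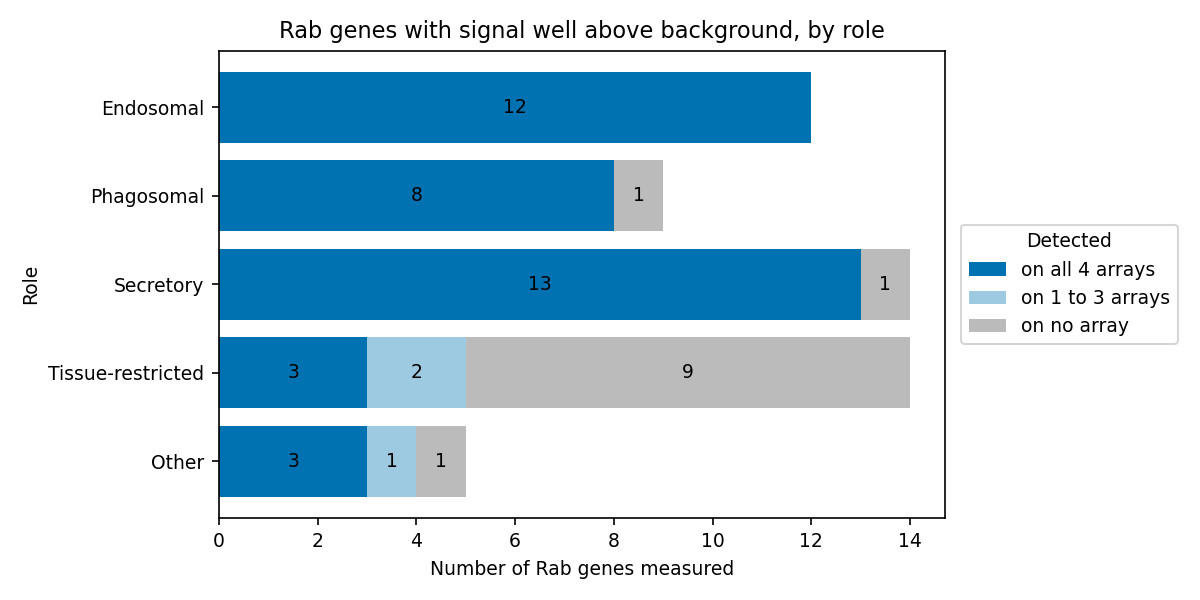
Number of measured Rab genes (horizontal axis) in each role, split by the number of arrays on which the gene was well above background. All 12 endosomal genes lie in the class detected on all 4 arrays, while 9 of the 14 tissue-restricted genes lie in the class detected on none.

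Several Rab genes have close relatives that share their number, and these relatives were not always detected together. Of 13 numbers with more than 1 measured gene, 7 had all their genes detected on all arrays and 6 were split. The complete sets were Rab1a and Rab1b, Rab2a and Rab2b, Rab4a and Rab4b, Rab5a to Rab5c, Rab7a and Rab7b, Rab8a and Rab8b, and Rab11a and Rab11b. In the split sets Rab3d, Rab6a, Rab9a, Rab27a, Rab33b and Rab40b were detected on all arrays. Their relatives Rab3a, Rab3b, Rab3c, Rab6b, Rab9b and Rab27b were on none, Rab33a was on 3 and Rab40c on 1.

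The stretches in front of both genes of the pairs Rab6a with Rab6b and Rab9a with Rab9b are shown because in both pairs one gene was detected on all arrays and the other on none, and both windows lie outside the annotated span of their gene. Rab27a and Rab27b, and Rab3d with its relatives, also differ in detection, but the windows of Rab27b and Rab3d overlap their own gene's span. Each sequence is the 250 bases before the gene's annotated start, written from 5′ to 3′ on the gene's own strand, from RefSeq on the GRCr8 build. Capitals mark the GC box GGGCGG, which the factor SP1 binds, and the CCAAT box CCAAT, which the factor NF-Y binds, on either strand. The Rab6a stretch lies at chr1:164369783-164370032 on the plus strand and the Rab6b stretch at chr8:112573973-112574222 on the plus strand. The Rab9a stretch lies at chrX:31609839-31610088 on the plus strand and the Rab9b stretch at chrX:105023873-105024122 on the minus strand.
Rab6a: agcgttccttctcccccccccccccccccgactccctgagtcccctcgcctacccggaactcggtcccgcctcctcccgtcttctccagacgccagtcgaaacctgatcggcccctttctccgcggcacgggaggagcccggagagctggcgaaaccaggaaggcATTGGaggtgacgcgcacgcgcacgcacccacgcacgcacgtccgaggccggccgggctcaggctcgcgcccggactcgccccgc
Rab6b: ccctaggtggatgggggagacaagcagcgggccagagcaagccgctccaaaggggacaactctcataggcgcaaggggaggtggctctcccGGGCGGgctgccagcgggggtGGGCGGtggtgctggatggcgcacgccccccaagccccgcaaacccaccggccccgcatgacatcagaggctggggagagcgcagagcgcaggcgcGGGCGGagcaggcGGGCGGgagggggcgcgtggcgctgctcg
Rab9a: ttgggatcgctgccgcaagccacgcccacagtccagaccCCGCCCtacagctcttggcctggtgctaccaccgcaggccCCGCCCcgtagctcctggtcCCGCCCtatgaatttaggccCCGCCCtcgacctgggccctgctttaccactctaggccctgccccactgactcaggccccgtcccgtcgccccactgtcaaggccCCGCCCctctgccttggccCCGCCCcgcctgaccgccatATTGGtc
Rab9b: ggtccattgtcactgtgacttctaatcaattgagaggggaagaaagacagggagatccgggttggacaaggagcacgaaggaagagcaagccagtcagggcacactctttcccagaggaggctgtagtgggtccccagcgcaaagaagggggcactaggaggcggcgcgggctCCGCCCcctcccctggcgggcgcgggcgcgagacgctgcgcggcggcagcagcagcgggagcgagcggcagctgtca

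The Rab6a window held no GC box and 1 CCAAT box, and that of Rab6b held 4 GC boxes and no CCAAT box. The Rab9a window held 6 GC boxes and 1 CCAAT box, and that of Rab9b held 1 GC box and no CCAAT box. Other relatives do not repeat this pattern of CCAAT boxes. Neither the window of Rab27a nor that of Rab27b held one, and undetected Rab3a had 1 while detected Rab3d had none. CpG dinucleotides numbered 31 for Rab6a, 23 for Rab6b, 17 for Rab9a and 19 for Rab9b.

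Across the family, windows were given for 45 of the 54 measured genes, 46 in all since Rab30 has 2. The median number of CpG dinucleotides was 18 for the 33 genes detected on all arrays, with a range of 3 to 35. It was 11 for the 12 windows of undetected genes, with a range of 6 to 23. Both ranges overlap, and the median over all 33469 windows of the table was 5. A GC box lay in 28 of the 33 windows of detected genes (84.8%), in 6 of the 12 of undetected genes (50%) and in 30.5% of all windows. The CCAAT box lay in 11 of 33 (33.3%), 3 of 12 (25%) and 34.0% respectively. The windows of all genes, 27457 genes in number, include genes not on the arrays and were not split by detection. Whether the differences between detected and undetected Rab genes, here and for the motifs below, are particular to this family was not tested.

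The other motifs were also searched on both strands. An ETS-type match can share its first letters with a GC box, and such overlaps were counted under both. The ETS-type motif CGGAAG was found in 9 of 33 windows of detected genes (27.3%), in 0 of 12 of undetected genes and in 13.9% of all windows. The E-box CACGTG, the core of the element bound by the lysosome regulator TFEB, was found in 3 of 33, in 0 of 12 and in 5.59% of all windows, the 3 being those of Rab5a, Rab21 and Rab31. The TATA box TATAAA was in 0 of 46 Rab windows against 12.9% of all windows. A match of letters is a description of these windows, and which start the cells used was not measured. Of the 46 windows, 25 overlap the annotated span of their own gene, so that the start in the table is not the outermost one there.

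**Figure D2:**
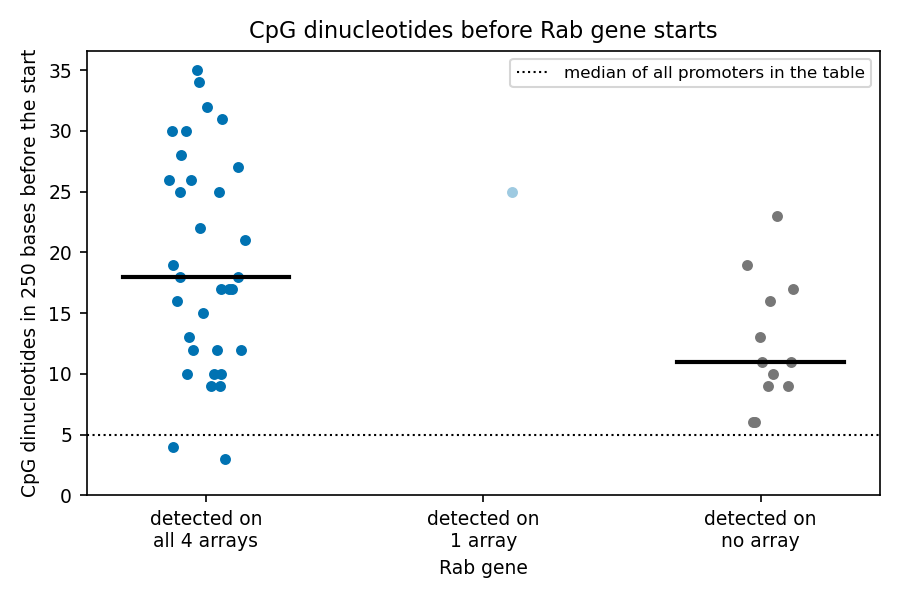
CpG dinucleotides (vertical axis, count) in the 250 bases before the annotated start of Rab genes, by the number of arrays on which the gene was detected. Each point is 1 window and thick bars are medians (18 and 11). The dotted line is the median of 5 over all windows in the table, not split by detection, and the points of the detected and undetected genes overlap.

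Endosomal genes were detected without exception. Rab5a, the organiser of early endosomes, had levels of -2.45, -2.78, -2.68 and -2.30 on replicates 1 to 4, a mean of -2.55 ± 0.22 (SD, n = 4). Its single probe lay below the 75th percentile on every array and still well above background. The other early endosomal members Rab5b and Rab5c had levels of 3.63 ± 0.16 and 3.79 ± 0.15 (SD, n = 4 for both). The single spot of Rab5c lies in a bright region of the replicate 4 array, but Rab5c was highest on replicate 3, at 4.00.

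The genes of rapid and slow receptor recycling varied little by their brightest probes. Rab4a, which returns receptors from early endosomes to the surface, had levels of 3.13, 2.88, 3.11 and 3.08, and its relative Rab4b had 3.75 ± 0.07 (SD, n = 4). Rab11a, which marks the recycling endosome, had levels of 5.21, 4.94, 5.18 and 4.97. Its second probe read 1.77, 1.80, 1.59 and 1.21. Replicate 2 was lowest by the brightest probe and highest by the second, while both probes put replicate 1 above 3 and 3 above 4. Rab35, which acts in recycling and in the entry step of phagocytosis, had levels of 5.44, 5.68, 5.52 and 5.50. Rab4a was lowest on replicate 2, and Rab35 was highest there by both of its probes.

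Of the remaining endosomal genes, Rab21, which follows integrins into endosomes, had a level of 3.35 ± 0.04 (SD, n = 4). Rab12, which acts in the degradation of receptors, had one of the 5 largest SDs among the detected members, with levels of 4.12, 3.39, 3.86 and 3.96. Its second probe read -1.12, -1.28, -1.31 and -1.01, so that replicate 2 was lowest by the brightest probe and replicate 3 by the second. Rab31, a relative of Rab5 and Rab22 that acts between the Golgi and endosomes, had a level of 5.13 ± 0.18, and Rab9a, of the route from late endosomes to the Golgi, one of 1.34 ± 0.15 (SD, n = 4 for both). Rab11b lay at 0.67 ± 0.09 (SD, n = 4).

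Phagosomal genes were detected except for Rab39a. Rab7a, which drives fusion of the late phagosome with lysosomes, had levels of 3.55, 3.02, 3.34 and 2.82, a mean of 3.18 ± 0.33 (SD, n = 4). The highest and lowest arrays differed 1.66-fold. Rab7a had the largest SD of the 39 detected members here, but Rab12 exceeded it with the detected-probe percentile (0.30 against 0.28), quantile normalization (0.30 against 0.28) and normexp (0.41 against 0.35). Rab7b, a lysosomal relative found in myeloid cells, had levels of 3.08, 2.76, 3.15 and 2.74. For both genes replicates 1 and 3 were above replicates 2 and 4. The second probe of Rab7b read -0.06, 0.29, 0.04 and -0.23 and did not follow this order, since replicate 2 was its highest.

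Rab14, which acts on young phagosomes and in traffic between Golgi and endosomes, had levels of 6.62, 6.64, 6.48 and 6.47. Rab20, a phagosomal and hypoxia-induced member, had levels of 3.12, 3.12, 3.14 and 3.17. Its SD of 0.03 was the smallest of the detected members under this scaling, but it was 0.07 with the detected-probe percentile, 0.06 with quantile normalization, 0.12 with normexp and 0.33 with the array median, where other members varied less. Rab32, which serves lysosome-related organelles and the defence against vacuolar bacteria, had levels of 1.63, 1.37, 1.61 and 1.50.

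Rab34, which positions lysosomes and acts in phagosome maturation, was printed in 10 spots per array and so shows the error within an array. Its levels were 1.78, 1.62, 1.82 and 1.62 on replicates 1 to 4. The SD between the spots of one array was 0.10, 0.09, 0.08 and 0.11, over 9 spots on replicate 1 and 10 on the others. The spots ranged from 1.65 to 1.95 on replicate 1 and from 1.45 to 1.76 on replicate 4, so that single spots overlapped between arrays. The means of the 4 arrays had an SD of 0.11. Each mean averages 9 or 10 spots, so its error within an array is smaller than the SD of single spots. The overlap of single spots therefore does not show that the means agree.

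Rab39a, which acts in phagosome acidification and autophagy of macrophages, was not well above background on any array. Its measured values were -4.98, -4.08, -4.91 and -3.45, and such values give only an upper bound. Rab24, linked to autophagy, lay at 2.93 ± 0.16, and Rab43, which acts at the Golgi and on phagosomes, at 1.09 ± 0.15 (SD, n = 4 for both). The single spot of Rab24 lies in a bright region of the replicate 4 array, where it reached its highest level of 3.09 against 2.73 to 3.01 on the other arrays. The part of the region in that value was not tested. The 66 spots of unnamed probes around the Rab24 spot had a median of -2.60 on replicate 4 against -4.96 to -4.08 on the other arrays.

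**Figure D3:**
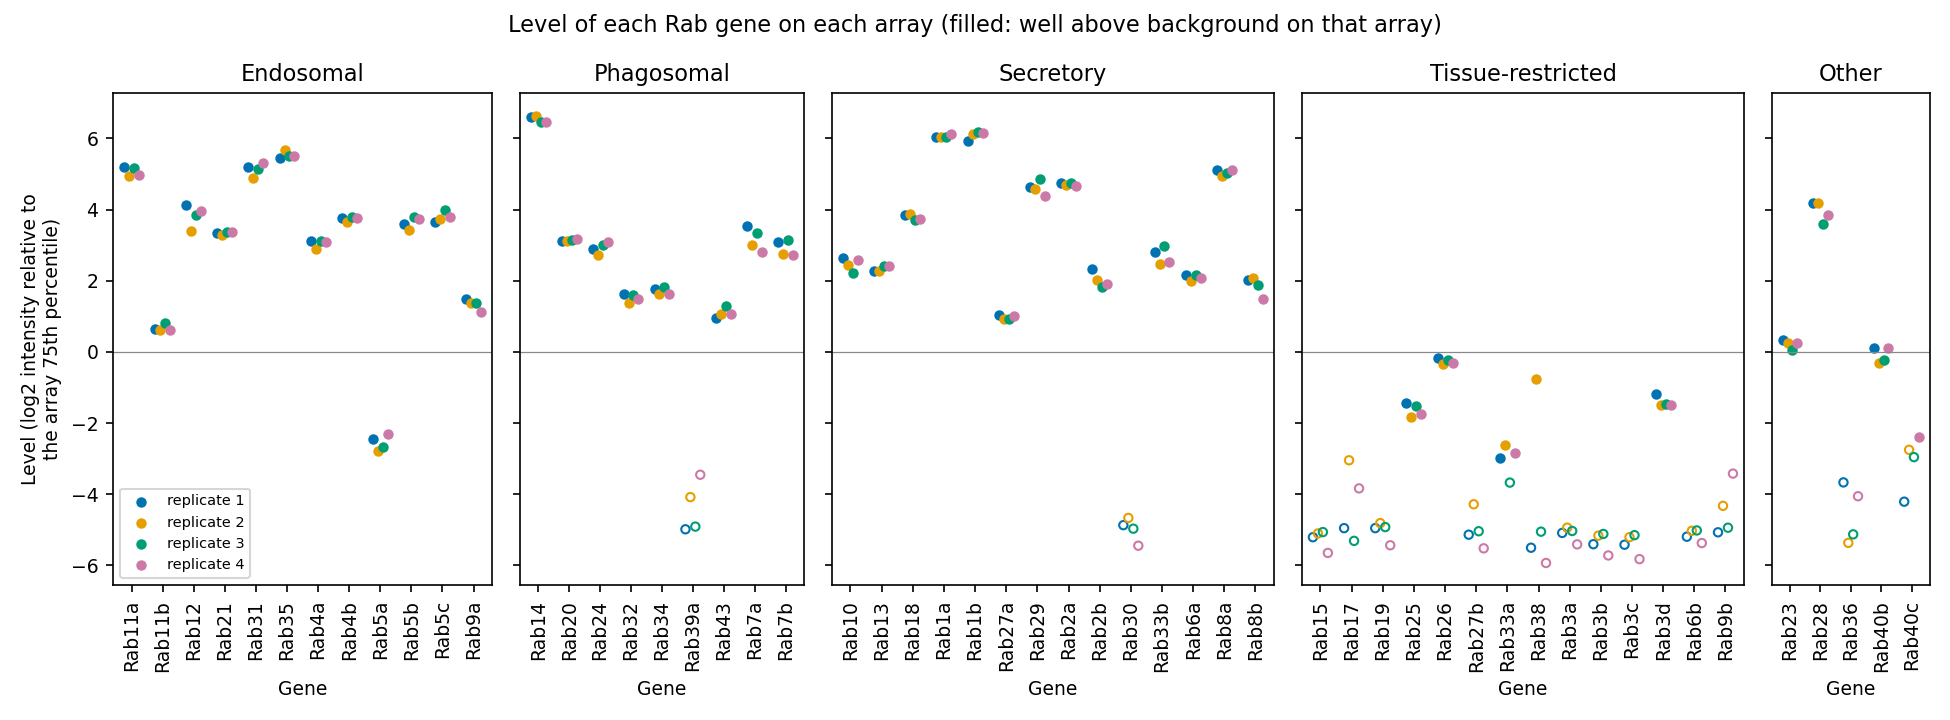
Level of each of the 54 Rab genes (vertical axis, log2 intensity relative to the array's 75th percentile, marked by the line at 0) on the 4 arrays, by role. Each point is 1 array, filled where the gene was well above background there and open where it was not; Rab38 has a single filled point, on replicate 2 at -0.75.

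Secretory and Golgi genes were detected except for Rab30. Their median SD was 0.08 over 13 detected genes against 0.14 for all 39 detected members. It was 0.15 against 0.14 with normexp and 0.36 against 0.39 with the array median. The order of all roles by spread changed with the scaling, although the secretory median stayed below the endosomal one. Rab1a, which carries proteins from the endoplasmic reticulum to the Golgi, had levels of 6.05, 6.05, 6.03 and 6.12, and Rab1b one of 6.10 ± 0.12 (SD, n = 4). Rab2a, which acts between Golgi and endoplasmic reticulum, had levels of 4.76, 4.70, 4.76 and 4.68. Rab6a, of traffic within and from the Golgi, had levels of 2.16, 2.01, 2.15 and 2.09. By the brightest probe, the highest and lowest arrays differed 1.07-fold for Rab1a, 1.06-fold for Rab2a and 1.11-fold for Rab6a.

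Several genes of the secretory list act in the last step to the surface. Rab8a, which carries vesicles from the Golgi to the plasma membrane, had levels of 5.13, 4.96, 5.04 and 5.11. Rab10, which carries the receptor TLR4 to the macrophage surface, had levels of 2.65, 2.44, 2.22 and 2.60. Rab27a, the member of regulated exocytosis and exosome release, had levels of 1.04, 0.94, 0.91 and 1.02. Rab8b varied more than Rab8a, with levels of 2.03, 2.07, 1.89 and 1.48, and was low on replicate 4.

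Other genes of this route were Rab13 at 2.35 ± 0.08, Rab18, a protein of lipid droplets and the endoplasmic reticulum, at 3.80 ± 0.08, and Rab29, which recruits the kinase LRRK2, at 4.62 ± 0.19 (SD, n = 4 for all). Rab33b, a Golgi protein that binds the autophagy factor ATG16L1, had levels of 2.80, 2.48, 2.98 and 2.52. Its spot lies in a bright region of the replicate 3 array, where Rab33b was highest, and the part of the region in that value was not tested. The 69 spots of unnamed probes around the Rab33b spot had a median of -0.05 on replicate 3 against -4.86 to -3.90 on the other arrays. Rab2b lay at 2.02 ± 0.23 (SD, n = 4). Rab30 was not well above background on any array.

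Tissue-restricted genes were mostly not well above background. The neuronal members Rab3a, Rab3b and Rab3c, which act on synaptic vesicles, were detected on no array, and the measured values of Rab3a were -5.09, -4.94, -5.03 and -5.41. Rab6b and Rab9b, relatives with a mainly neuronal distribution, and Rab15 were not detected either. Rab6b and Rab15 were each printed in 10 spots, and none of the spots kept was well above background. Of the spots of Rab6b left out as outliers, 1 in a bright region read 0.15 on replicate 3 and 1 in another read 6.72 on replicate 4, against a mean of the kept spots of -5.02 and -5.37 there.

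Of 10 measured neuronal markers, 0 were detected on all arrays and 8 on none, Snap25 and Rbfox3 among them. The shares of all named genes were 50.8% and 36.9%. The summed level of the 10 markers on a linear scale, in units of the array's 75th percentile, ranged from 0.354 to 0.704 over the arrays. The exceptions among the 10 were Syt1 on 3 arrays and Syn1 on 1.

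Rab3d, the Rab3 member of secretory granules in gland and mast cells, was detected on all arrays, with levels of -1.19, -1.49, -1.46 and -1.49. Rab26, of exocrine granules, lay at -0.26 ± 0.07 (SD, n = 4). Rab25, the epithelial relative of Rab11a and Rab11b, was also detected, with levels of -1.42, -1.84, -1.52 and -1.74. Of 12 measured epithelial markers, 1 (Elf3) was detected on all arrays and 10 were on none, Epcam and Cdh1 among them. The shares of all named genes were 50.8% and 36.9%. The summed level of the 12 markers was 0.640 to 0.734. Each of Rab3d, Rab25 and Rab26 rests on a single probe.

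The epithelial member Rab17 was not well above background on any array, with measured values of -4.95, -3.04, -5.31 and -3.83. Rab27b, the relative of Rab27a in secretory cells and platelets, was detected on no array by any of its 3 probes. The measured values of the brightest were -5.14, -4.28, -5.04 and -5.52. Rab19 was on none as well.

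Rab38, which with Rab32 serves melanosomes and the lamellar bodies of type II cells, was detected on replicate 2 alone. Its values were -5.50, -0.75, -5.05 and -5.93. The 66 spots of unnamed probes around it had a median of -1.11 on replicate 2 against -4.91 to -3.54 on the other arrays. Of 6 measured melanocyte markers Mitf alone, which macrophages also express, was detected on all arrays. Among all named genes 50.8% were detected on all arrays and 36.9% on none. Mlana was on 3, Slc45a2 on 2, and Tyr, Tyrp1 and Oca2 on none, with a summed level of 41.3 to 64.7 that rests almost wholly on Mitf. The other 5 markers had mean values between -5.45 and -2.26. The part of the bright region in the Rab38 value was not tested. The surfactant genes Sftpc, Sftpb and Sftpa1 of type II cells were on none.

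Rab33a, found mainly in brain and lymphocytes, was detected on 3 arrays. Its values were -2.98, -2.62, -3.67 and -2.83, with replicate 3 as the array without detection. Of 8 measured markers of lymphoid and mast cells, 2 (Gzmb and Nkg7) were detected on all arrays and 4 on none, Cd3e among them. The shares of all named genes were 50.8% and 36.9%. The summed level of the 8 markers was 1.21 to 1.94.

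Among genes with other roles, Rab23, a regulator of hedgehog signalling and cilia, had levels of 0.33, 0.24, 0.05 and 0.24. It was the only member whose probes disagreed on detection, since its second probe was well above background on 2 arrays. Rab28, linked to cilia and endosomal sorting, had levels of 4.19, 4.19, 3.59 and 3.85. Rab28 was low on replicate 3, and its second probe read 3.81, 3.72, 3.63 and 3.60. Rab40b, which carries a SOCS box and joins ubiquitin ligases, was detected at -0.07 ± 0.22 (SD, n = 4). Its relative Rab40c was detected on replicate 4 alone, with values of -4.21, -2.75, -2.96 and -2.38. Rab36 was on none.

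Of the 13 members with more than 1 probe, 11 had all probes detected on all arrays and 1, Rab27b, had none. The levels of these probes differed widely within a gene. The gap between the mean levels of the brightest and dimmest probe reached 7.07 log2 units for Rab35, 6.04 for Rab1b and 5.01 for Rab12, and it was 0.27 for Rab28. The other 41 members rest on 1 probe. The name table holds 13 pseudogenes named after Rab genes, and 7 measured members have one, namely Rab1a, Rab1b, Rab5c, Rab7a, Rab11a, Rab12 and Rab18. Whether their probes also bind such copies was not tested.

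The replicates differed little for the detected members when each was read by its brightest probe. The median SD was 0.14, against 0.16 for all 8424 detected genes. The SDs ranged from 0.03 to 0.33, and 26 of 39 lay below the median of all detected genes. Dimmer probes gave other SDs. Larger ones were 0.49 for Rab35, 0.44 for Rab18 and 0.43 for Rab1b, and smaller ones 0.09 for Rab28 and 0.14 for Rab12. SDs above 0.5 occurred for none of the 39, against 205 of the 8424. At so small a general share, finding none among 39 genes says little about the family. Bright genes vary less in general, with a median SD of 0.14 above and 0.20 below the median level of the detected genes. Above that median the 27 Rab genes had a median SD of 0.14, and below it the 12 Rab genes had one of 0.13.

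The Rab genes lay slightly low on replicate 2. Of the 39 detected members, 17 (43.6%) were lowest and 5 were highest there, against 26.7% and 17.6% of all detected genes. On replicate 1, 16 of 39 (41.0%) were highest, against 31.0% of all. The median deviation of the Rab genes from their 4-array means was 0.07, -0.07, 0.04 and -0.03 on replicates 1 to 4, and that of all detected genes was 0.03, -0.02, 0.03 and -0.03. On replicate 2 the Rab median thus stood 0.05 below that of all genes, a distance whose own uncertainty was not estimated. This distance kept its sign under 7 other ways of processing, at 0.04 to 0.06 below, although changing only the reference of an array, as the detected-probe percentile and the array median do, cannot move it. The array on which most Rab genes were highest changed with the scaling, and with outlier spots kept most were lowest on replicate 4, 18 against 14 on replicate 2. No test was made of it, and the members share the arrays.

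**Figure D4:**
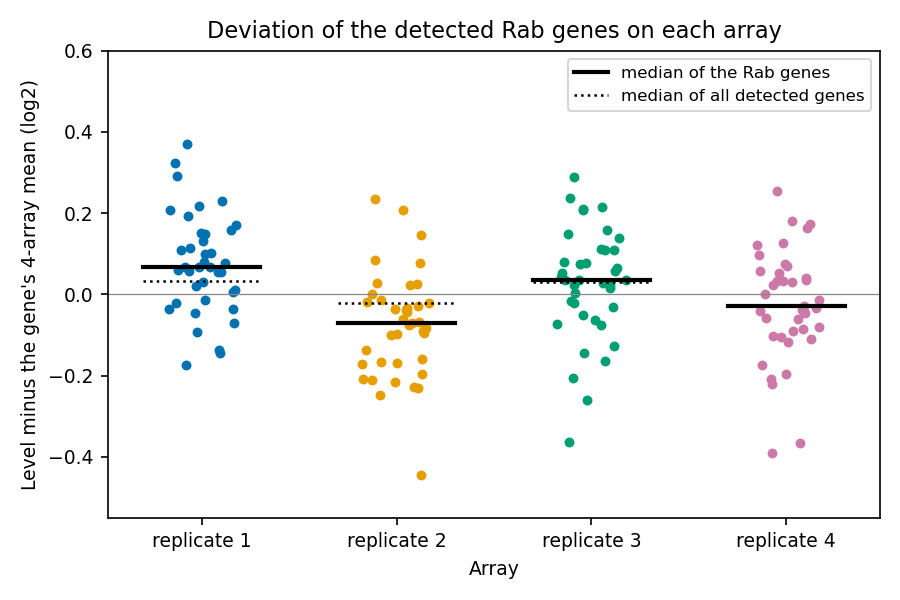
Level of each of the 39 detected Rab genes minus its own 4-array mean (vertical axis, log2 units) on each array. Points are genes, solid bars are their medians (0.07, -0.07, 0.04 and -0.03 on replicates 1 to 4) and dotted bars are the medians of all detected genes (0.03, -0.02, 0.03 and -0.03), and on replicate 2 the solid bar lies below the dotted one.

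Most genes of the machinery that runs the Rab cycle were detected. Of 90 measured genes in the 4 lists of cycle proteins, exchange factors, activating proteins and effectors, 73 (81.1%) were detected on all arrays and 8 on none, against 50.8% of all named genes detected. All 8 genes of lipid attachment and recycling of Rab proteins were detected. Among them Gdi2, a GDP dissociation inhibitor, had a level of 4.82 ± 0.07 (SD, n = 4).

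Exchange factors were detected in 19 of 21 cases. Rabgef1, the exchange factor of Rab5, had a level of 3.04 ± 0.11 (SD, n = 4). Rin1, another Rab5 exchange factor, was detected on 2 arrays. Mon1a of the Rab7 exchange factor and Hps1 and Hps4 of that of Rab32 and Rab38 were detected on all arrays. Rab3ip, the exchange factor of Rab8, was on none, although Rab3il1, its relative, was on all.

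Activating proteins were detected in 17 of 20 cases. Tbc1d1, which acts on Rab8a, Rab10 and Rab14, had a level of 5.03 ± 0.08 and Tbc1d5, which acts on Rab7, one of 3.00 ± 0.14 (SD, n = 4 for both).

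Effectors were detected in 29 of 41 cases. Rabep1 and Rabep2, which bind Rab5, had levels of 2.84 ± 0.10 and 2.98 ± 0.05 (SD, n = 4 for both). The Rab7 effectors Rilp, Plekhm1, Fyco1, Osbpl1a and Vps39 were detected on all arrays. Of the proteins that bind Rab27, Unc13d and Mlph were detected on all arrays, Myrip on 2, and Sytl1, Sytl3 and Sytl4 on none. Sytl5 has no level, since its single spot was left out as an outlier on replicate 4, and it was not well above background on the other 3 arrays. Of the Rab3 effectors, Rims1 was on no array, Rph3a on 1 and Rims2 on all.

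The labelled cell type was checked on its markers, and 11 of 13 measured macrophage markers were detected on all arrays, Cd68, Csf1r and Lyz2 among them. Of all named genes 50.8% were detected on all arrays and 36.9% on none. Adgre1 was detected on 2 arrays and Marco, the scavenger receptor of alveolar macrophages, on 1. The summed level of the 13 was 1040 to 1078 and rests mainly on Lyz2 and Cd68, whose mean log2 levels were 9.45 and 7.56. Probes bind differently, so the sums of different marker lists were not compared. Of 8 measured fibroblast markers 1, Dcn, was detected on all arrays and 6 were on none. Their summed level of 1.42 to 1.76 rests mainly on Dcn. Each array detected between 8917 and 9985 named genes and between 39 and 41 Rab genes, and no non-control spot was saturated.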

How the data were processed

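Total RNA of 4 Printex90-exposed NR8383 cultures was measured on 1-colour Agilent arrays with 62976 spots each. The authors deposited linear, background-subtracted intensity values per spot, not normalized between arrays. The submitters' processing notes name Agilent Feature Extraction 11.0.1.1. The file headers name rn4 for the array design, whose coordinates are not used here; the promoter windows are those of GRCr8.

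Transcript accessions without version were matched to the RefSeq table of GRCr8, which named 21109 of 45598 probes for 16581 genes. Spots marked as non-uniform or population outliers (750 to 1551 per array) were left out, log2 signals averaged per probe, and the 75th percentile of an array's non-control probes subtracted (intensities of 83.8 to 127). Each gene is given by its brightest probe among those with a value on all arrays. The number of arrays, 4, limits the precision.

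Members and gene lists were chosen with earlier results of these data known. Values on each array are given for 23 measured genes fixed by name (Rab22a, a further one, had no named probe), the 5 detected members with the largest SD, members detected on 1 to 3 arrays and those whose probes disagree. Of each pathway list the first 2 measured genes are given, apart from an item that is not reported here. With 1 group no test was made. Steps were checked on simulated data. Alternatives were the less strict detection mark, detection on 3 of 4 arrays or by all probes of a gene, marked spots kept, other scalings, normexp with an offset of 50 (limma 3.58.1, R 4.3.3), the mean of all probes, bright regions left out and each replicate left out. A bright region is a block of 16 rows and 8 columns where over 10% of unnamed spots exceeded their values on all other arrays by at least 1 log2 unit. Python 3.11.15, numpy 2.4.6, pandas 2.3.3 and matplotlib 3.10.9 were used.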

Additional observations from a re-analysis of the deposited data

Results flagged for a closer look

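The levels of 54 Rab genes and 8 pathway genes were each searched for 1 array far from the other 3 by Dixon's ratio of the gap to the range, whose critical value chance passes in about 5% of groups. Of these 62 genes, 5 had such an array. Rab38 stood at -0.75 on replicate 2 against -5.93 to -5.05 elsewhere, inside a bright region. Rin1 was low on replicate 3, at -5.04 against -2.93 to -2.78, and was detected on 2 arrays. The other 3 genes were detected on all arrays and their distances were small. Rab11b was high on replicate 3 at 0.81 against 0.61 to 0.64. Rab3d was high on replicate 1 at -1.19 against -1.49 to -1.46. Rab4b was low on replicate 2 at 3.65 against 3.77 to 3.79, while its second probe was lowest on replicate 1, at 0.84.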

How the results depend on the processing

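The number of Rab genes detected on all arrays, 39, lay between 36 and 42 over 9 alternatives. The less strict flag added Rab17, Rab33a and Rab40c, which raised the tissue-restricted count from 3 to 5, while 61.7% of all genes then passed. Accepting 3 of 4 arrays, or leaving out replicate 3, added Rab33a. Requiring all probes removed Rab23. Leaving out the bright regions removed Rab5c, Rab24 and Rab33b, which then had no spot. The endosomal, phagosomal, secretory and other counts, and the 73 pathway genes, whose alternatives, like those for the SDs by role and gene, were added after the data were seen, stayed within 1.5 times their values. The median SD of 0.139 was 0.390 with the array median as reference and 0.173 without the detection filter. Leaving out 1 replicate gave 0.109 to 0.137. The detected-probe percentile, normexp and quantile scalings gave 0.131, 0.137 and 0.140. Levels shift with the reference, by a median over all genes of -3.41 for the 75th percentile of detected probes, 3.57 for the array median, 6.67 for quantile normalization and 1.28 for normexp, which moved the Rab genes by a median of -0.49. The mean over all probes moved 7 of the 30 named levels by more than their SD, most for Rab35, to 2.00. No paired analysis was possible because the series has 1 analysed group.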
